A study of Mus musculus with 4 samples.

Results

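The 26S proteasome is the protease that degrades ubiquitin-tagged proteins, and the genes of its subunits were examined in follicular helper T (Tfh) cells, a CD4 subset specialised in giving help to germinal centre B cells. Genes were taken by symbol, as Psma, Psmb, Psmc, Psmd or Psme followed by a number, which gave 43 genes of the 23997 in the table. They were grouped as 16 core genes (Psma and constitutive Psmb), 20 regulatory genes (Psmc and Psmd), 4 activator genes (Psme) and the 3 immunoproteasome genes Psmb8, Psmb9 and Psmb10. RNA sequencing covered 2 wild-type (WT) and 2 Apoe-/- libraries. Apoe-/- mice lack apolipoprotein E and are prone to raised cholesterol and atherosclerosis, and the labels name no agent in either group. All mice were 13 weeks old and of strain C57BL/6, and cells came from lymph nodes and spleens. The labels give no diet, no sorting gate and no word on whether a library is one mouse or a pool, so the p-values cover no more than library-to-library spread, possibly technical.

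In the core particle, stacked rings of alpha and beta subunits enclose the proteolytic sites, and 3 beta subunits carry the activity: Psmb5, Psmb6 and Psmb7. Interferon-gamma induces Psmb8, Psmb9 and Psmb10, which take the places of Psmb5, Psmb6 and Psmb7 in new particles and change which peptides are cut. Lymphocytes carry much of this immunoproteasome even at rest, and its peptides supply MHC class I molecules. The regulatory particle binds ubiquitin, removes it and unfolds substrates with a ring of ATPases, while Psme proteins form caps of another kind that open the core without ubiquitin.

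The promoters of Psmb8 and Psmb9, the inducible subunits with a higher mean in Apoe-/- libraries, and of the constitutive subunits they replace, are shown because the ratios within these pairs are described below. Each runs from 250 bases before to 50 bases after the start of transcription in RefSeq's GRCm38.p6, on the gene's strand. Psmb8 lies at chr17:34197945-34198244 (plus strand), Psmb9 at chr17:34187281-34187580 (minus), Psmb5 at chr14:54617946-54618245 (minus) and Psmb6 at chr11:70525107-70525406 (plus). Capitals mark matches to the motifs searched.
Psmb8: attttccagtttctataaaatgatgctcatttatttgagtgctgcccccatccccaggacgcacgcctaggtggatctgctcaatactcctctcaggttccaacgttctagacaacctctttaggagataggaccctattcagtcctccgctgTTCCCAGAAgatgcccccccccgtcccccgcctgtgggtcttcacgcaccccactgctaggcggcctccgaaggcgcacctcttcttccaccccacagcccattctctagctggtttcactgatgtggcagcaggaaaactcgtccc
Psmb9: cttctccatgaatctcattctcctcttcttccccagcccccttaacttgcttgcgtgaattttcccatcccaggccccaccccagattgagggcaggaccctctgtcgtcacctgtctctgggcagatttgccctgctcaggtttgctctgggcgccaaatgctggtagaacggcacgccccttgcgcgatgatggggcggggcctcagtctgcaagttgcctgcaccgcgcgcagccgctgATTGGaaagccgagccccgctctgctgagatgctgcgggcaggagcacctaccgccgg
Psmb5: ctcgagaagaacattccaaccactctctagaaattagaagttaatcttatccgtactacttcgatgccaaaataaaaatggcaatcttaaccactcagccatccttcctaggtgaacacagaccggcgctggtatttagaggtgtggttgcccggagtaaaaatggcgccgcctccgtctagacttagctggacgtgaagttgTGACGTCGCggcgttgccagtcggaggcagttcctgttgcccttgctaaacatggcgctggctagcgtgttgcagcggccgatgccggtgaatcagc
Psmb6: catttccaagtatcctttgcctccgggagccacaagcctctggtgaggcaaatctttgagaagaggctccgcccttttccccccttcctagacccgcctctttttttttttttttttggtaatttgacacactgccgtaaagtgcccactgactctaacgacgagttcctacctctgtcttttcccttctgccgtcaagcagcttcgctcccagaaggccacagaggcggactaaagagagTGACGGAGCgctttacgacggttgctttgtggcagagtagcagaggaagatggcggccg

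Motifs were searched on both strands as TTCNNNGAA (interferon-gamma activated site), GAAA, any 2 bases and GAAA (the interferon-stimulated response element, ISRE), TGACNNNGC (antioxidant response element, bound by the proteasome regulator Nfe2l1) and CCAAT. The Psmb8 window held TTCNNNGAA, 97 bases before the start, as did 8.30% of all 32851 promoter windows. Both constitutive windows held TGACNNNGC, at 47 bases before the start in Psmb5 and 9 bases in Psmb6, against 12.4% of all windows. The window of Psmb10, whose sequence is not shown (chr8:105938343-105938642, minus strand), held none of the 4 motifs. No window of Psmb7 is shown, and Psmb7 was not among the members with a match to any of the 4 motifs. Not every member had a window, and whether Psmb7 had one is not given here, so it may not have been searched. The Psmb9 window held CCAAT on its opposite strand (capitals ATTGG, 37.4% of all windows) 8 bases before the start. These are matches of letters, not measured binding. Of the 43 genes, 36 had a promoter in the table, in 39 windows. TTCNNNGAA was in 2 of these 39, the ISRE in 4 (3.44% of all windows), TGACNNNGC in 6 and CCAAT in 14.

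Values are FPKM as the authors deposited them, that is, fragment numbers corrected for transcript length and for library size. Read depth is unknown. FPKM totals were 522371 to 551289, and 11084 to 11251 genes reached 1 FPKM in a library. Apoe was at 145 and 128 FPKM in WT and at 5.09 and 5.21 FPKM in Apoe-/- libraries. The T cell genes Cd3d, Cd3e and Cd4 were at 281 to 408 FPKM and the Tfh genes Cxcr5, Bcl6, Icos and Pdcd1 at 94.1 to 283 FPKM over all libraries, so the labelled cell type's markers were present. Of these 7 genes 0 passed. Pdcd1 was lower without overlap in Apoe-/- cells (-0.50, adjusted p = 0.0887), as were 22.9% of tested genes. Cxcr5 (0.33, adjusted p = 0.153), Bcl6 (0.23, adjusted p = 0.250) and Cd4 (0.15, adjusted p = 0.351) were higher without overlap, as were 27.5% of tested genes. The other 3 overlapped. Low FPKM values were related between libraries of equal replicate number: a single ratio held for 19.0% of low genes between both libraries numbered 1 and for 18.8% between those numbered 2, against 4.64% to 6.44% in the other 4 pairings. Differences within each number are therefore given beside pooled ones.

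The proteasome genes were expressed at high levels, and no member changed between genotypes by the test used. Of 43 members, 41 had a mean of at least 1 FPKM and were tested, over 11187 genes in all, with limma on log2(FPKM + 1) and Benjamini-Hochberg adjustment. At an adjusted p under 0.05, 0 of 41 were higher and 0 lower in Apoe-/- cells, where 0.948% of all tested genes were higher and 0.885% lower (1.83% in all). The lowest adjusted p of a member was 0.196, for Psmd11. At an unadjusted p under 0.05 there were 2 members, Psmd11 and Psmb5, both lower, against 19.9% of all tested genes, 8.27% being lower. All 41 differences lay between -0.31 and 0.19 on the log2 scale, and 0 exceeded 0.5 in size, as 9.24% of tested genes did. Bulk RNA cannot tell fewer cells of a type from less RNA per cell.

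Most member differences were small and negative. The median over members was -0.11, with -0.09 within both replicate number 1 and number 2, beside a median of 0.00 over all tested genes. The difference was below 0 in 34 of 41 members (82.9%; 50.0% of tested genes) and below 0 within both numbers in 30 (39.5% of tested genes). It was above 0 within both numbers in 4 (40.3% of tested genes). In 16 members (39.0%) both Apoe-/- libraries were below both WT libraries, which held for 22.9% of tested genes. In 2 members, Psmb8 and Psmd4, both were above, which held for 27.5% of tested genes. The other 23 overlapped, so 18 of 41 did not, against 50.4% of tested genes. Without Apoe-/- replicate 1 the member median was -0.036 and without WT replicate 2 it was -0.044, while without Apoe-/- replicate 2 or WT replicate 1 it was -0.14 in each case. In the same order, the median over all tested genes was 0.044, 0.026, -0.028 and -0.016. On leaving out single libraries, 16 of the 41 members turned sign in at least 1 case. Rescaling libraries to 1 FPKM total moved the member median to -0.16 and that of all genes to -0.04.

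**Figure D1:**
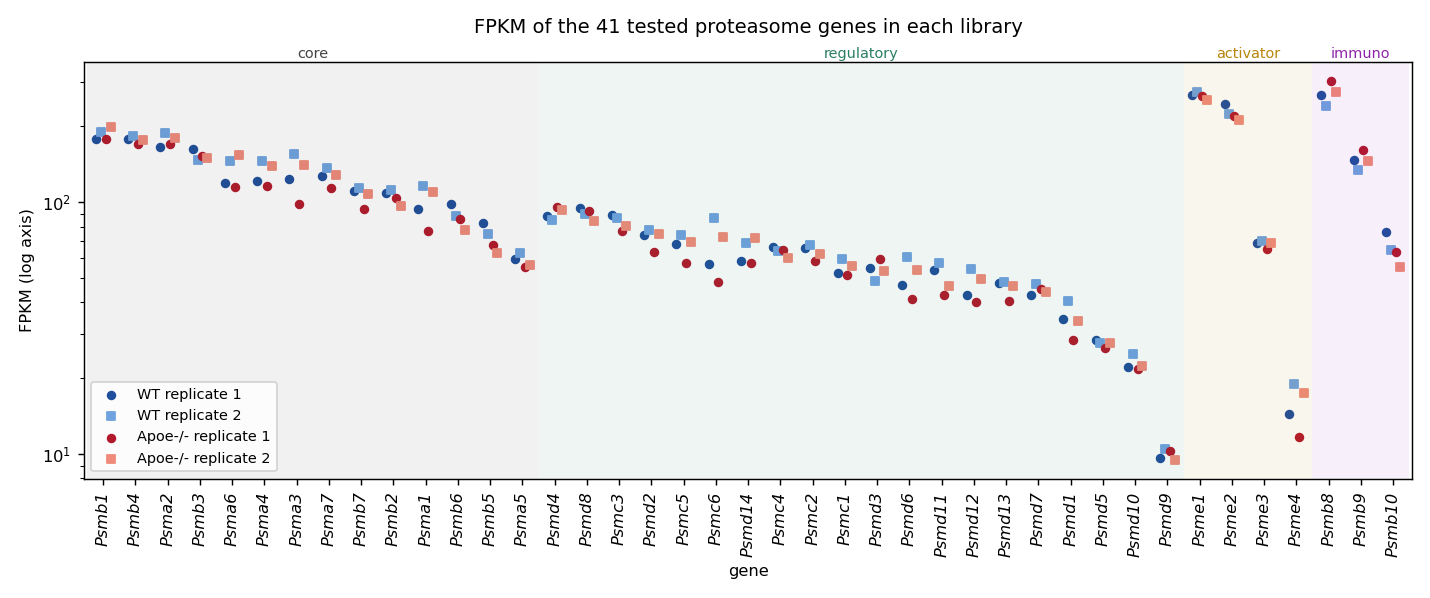
FPKM (log axis) of the 41 tested proteasome genes, ordered by class and then by mean level; each gene has 4 points, blue for WT, red for Apoe-/-, circles for replicate 1 and squares for replicate 2. Psmb8 and Psme1 lie highest, at means of 270.1 and 264 FPKM, and Psmd9 lowest, at 9.98 FPKM, and for most genes the 4 points lie close together.

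Among the 6 catalytic genes none passed; Psmb8 and Psmb9 had higher means in Apoe-/- cells, and Psmb10 and the 3 constitutive genes had lower means. Psmb8, which replaces Psmb5 at the chymotrypsin-like site, was the most abundant member. It measured 266 and 240 FPKM in WT and 303 and 272 FPKM in Apoe-/- libraries, so the groups did not overlap. The difference was 0.19 ± 0.10 SE (95% interval -0.07 to 0.44, adjusted p = 0.380), with 0.19 within number 1 and 0.18 within number 2. Psmb9, the inducible form of the caspase-like site, was at 148 and 135 FPKM in WT and 160 and 146 FPKM in Apoe-/- libraries. Its groups overlapped because WT replicate 1 exceeded Apoe-/- replicate 2, although the difference was 0.12 and 0.11 within numbers 1 and 2 (adjusted p = 0.576).

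Psmb10, the inducible form of the trypsin-like site, differed from both in sign. Its FPKM values were 76.4 and 64.8 in WT and 63.4 and 55.0 in Apoe-/- libraries, with every Apoe-/- value below both WT values by a small margin. The log2 difference was -0.25 ± 0.13 SE (95% interval -0.57 to 0.08, adjusted p = 0.358). Thus 1 inducible subunit was lower and 2 were higher in the means, none of them past the threshold. The class median of 0.12 is the Psmb9 value, and it was 0.046 without Apoe-/- replicate 1 and 0.049 without WT replicate 2. In these cases the median over all tested genes was 0.044 and 0.026.

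All 3 constitutive catalytic genes had lower values in Apoe-/- cells without overlap, as 22.9% of tested genes did, and none passed. Psmb5 measured 82.9 and 74.5 FPKM in WT and 67.5 and 62.9 FPKM in Apoe-/- libraries (difference -0.27 ± 0.10 SE, 95% interval -0.53 to -0.0045, adjusted p = 0.247). It was lower by a like amount within each number, -0.29 and -0.24. Psmb6 measured 98.3 and 88.1 FPKM in WT and 85.3 and 77.6 FPKM in Apoe-/- libraries (-0.19, adjusted p = 0.394). Psmb7 measured 111 and 113 FPKM in WT and 94.2 and 108 FPKM in Apoe-/- libraries (-0.15, adjusted p = 0.476). Its difference was uneven, with -0.23 within number 1 and -0.07 within number 2.

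A ratio of subunits within a library does not depend on how that library was scaled. The ratio of Psmb8 to Psmb5 was 3.20 and 3.21 in WT and 4.48 and 4.34 in Apoe-/- libraries, a difference of 0.46 on the log2 scale (0.48 and 0.43 within numbers). The SDs of this log2 ratio between libraries were 0.0035 in WT and 0.034 in Apoe-/- (n = 2 each, so poorly known). In the same order, SDs were 0.019 and 0.0016 for Psmb9 to Psmb6, and 0.19 and 0.28 for Psmb10 to Psmb7. For the summed ratio given below they were 0.053 and 0.11. How often ratios of other genes separate the genotypes was not examined. The ratio of Psmb9 to Psmb6 was 1.50 and 1.53 in WT and 1.88 in both Apoe-/- libraries, a log2 difference of 0.31. For Psmb10 to Psmb7 the ratios were 0.688 and 0.572 in WT and 0.673 and 0.510 in Apoe-/- libraries. Here the groups overlapped and replicate number set the order. Summed FPKM of the inducible genes was 1.68 and 1.59 times that of the constitutive genes in WT and 2.13 and 1.91 times in Apoe-/- libraries, a log2 difference of 0.30. Inducible genes thus made up 62.6% and 61.4% of summed catalytic FPKM in WT and 68.1% and 65.6% in Apoe-/- libraries. An exact two-sided permutation test gave p = 0.333 for the summed, Psmb8 and Psmb9 ratios, the smallest that 2 against 2 libraries allow, and 0.667 for Psmb10 to Psmb7. Over the 6 ratios tested the adjusted p was 0.667 or more. No ratio could pass in this design, so the test does not bear on whether the ratios differ.

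**Figure D2:**
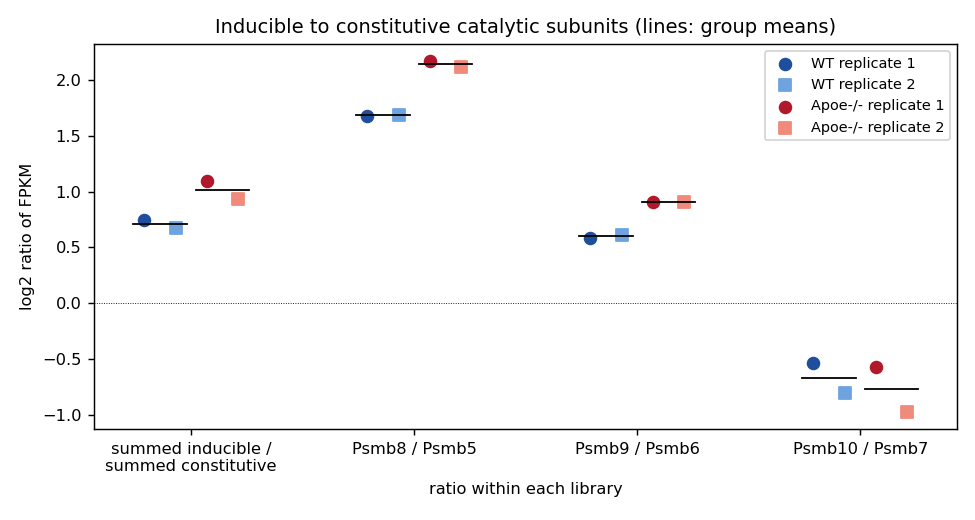
Log2 ratio of FPKM of inducible to constitutive catalytic subunits, by library (blue for WT, red for Apoe-/-), circles for replicate 1, squares for replicate 2 and lines for group means. For Psmb8 to Psmb5 the means are 1.68 in WT and 2.14 in Apoe-/-, and for Psmb10 to Psmb7 the genotypes overlap.

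The other beta subunits and the alpha ring, which form the shell of the core and its gate, had no member past the threshold. Psmb1 was the most abundant core gene, at 179 and 190 FPKM in WT and 178 and 199 FPKM in Apoe-/- libraries (difference 0.03, adjusted p = 0.892). The 4 non-catalytic beta genes had a median difference of -0.05. The alpha genes Psma1 to Psma7 ranged from a mean of 58.5 FPKM for Psma5 to 175 FPKM for Psma2, with a median difference of -0.12, beside -0.11 over all members. Psma5 measured 59.5 and 62.9 FPKM in WT and 55.2 and 56.4 FPKM in Apoe-/- libraries (-0.13, adjusted p = 0.499) and was the only alpha gene whose groups did not overlap. Psma3 measured 124 and 156 FPKM in WT and 98.2 and 140 FPKM in Apoe-/- libraries (-0.24 ± 0.20 SE, adjusted p = 0.555). In that gene the libraries numbered 2 were higher in both genotypes, by more than the genotypes differed. The same order held for all 7 alpha genes: their summed FPKM was 810 and 950.0 in WT and 744 and 907 in Apoe-/- libraries.

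Psma8, the testis form of an alpha subunit, and Psmb11, the beta subunit of thymic cortical epithelium, fell below the level needed for testing. Psma8 was at 0.0374 and 0.312 FPKM in WT and 0.0453 and 0.0458 FPKM in Apoe-/- libraries. Psmb11 was at 0.113 and 0.0576 FPKM in WT and was listed at 0 in both Apoe-/- libraries. Both were thus near 0 in every library.

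Genes of the regulatory particle had lower FPKM than those of the core, with a median of 54.4 against 128 over the tested genes. The 6 ATPases Psmc1 to Psmc6, which unfold substrates and open the gate of the core, lay within a narrow range of mean level, 54.7 to 83.1 FPKM. All 6 had a difference below 0 within both numbers, as did 39.5% of tested genes, with a median of -0.15 and adjusted p of 0.395 or more. Summed ATPase FPKM relative to the alpha ring was 0.491 and 0.461 in WT and 0.479 and 0.441 in Apoe-/- libraries, overlapping between genotypes. Psmc6, named after its values were seen, had the widest gap between numbers, at 56.6 and 86.3 FPKM in WT and 48.4 and 72.5 FPKM in Apoe-/- libraries. Its difference was -0.22 and -0.25 within numbers, and the pooled interval ran from -0.90 to 0.43.

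Among the 14 Psmd genes, Psmd11 had the most negative difference of all members. It encodes a lid subunit that helps hold lid, base and core together. Psmd11 measured 53.6 and 57.2 FPKM in WT and 42.7 and 46.6 FPKM in Apoe-/- libraries, with no overlap. The difference was -0.31 ± 0.10 SE (95% interval -0.57 to -0.05, unadjusted p = 0.0279, adjusted p = 0.196), with -0.32 and -0.29 within numbers. Psmd1, a large scaffold of the base, measured 34.4 and 40.5 FPKM in WT and 28.3 and 33.7 FPKM in Apoe-/- libraries (-0.26, adjusted p = 0.362). Here too the Apoe-/- values were below both WT values, by a margin of under 1 FPKM.

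Psmd4 and Psmd3 pointed up. Psmd4, a ubiquitin receptor and the most abundant regulatory gene, measured 87.9 and 85.2 FPKM in WT and 96.0 and 93.1 FPKM in Apoe-/- libraries (0.13 ± 0.09 SE, adjusted p = 0.492), with no overlap. Psmd3, a lid subunit, measured 54.6 and 48.5 FPKM in WT and 59.6 and 53.4 FPKM in Apoe-/- libraries (0.13, adjusted p = 0.577). The Psmd3 groups overlapped, and replicate 1 was the higher library in each genotype. Psmd9, an assembly chaperone that does not stay in the finished particle, had the lowest level of tested members, at 9.61 and 10.5 FPKM in WT and 10.3 and 9.49 FPKM in Apoe-/- libraries (-0.02, adjusted p = 0.942). The 8 lid genes had a median difference of -0.08, and 5 of them were lower within both numbers, as were 39.5% of tested genes.

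Among activators, Psme1 and Psme2, whose products form the interferon-inducible PA28 cap of the core, were next in abundance to Psmb8. Psme1 measured 266 and 274 FPKM in WT and 264 and 255 FPKM in Apoe-/- libraries (-0.06, 95% interval -0.26 to 0.15, adjusted p = 0.731). Psme2 measured 245 and 223 FPKM in WT and 220.1 and 211 FPKM in Apoe-/- libraries (-0.12, 95% interval -0.35 to 0.11, adjusted p = 0.533). In both genes each Apoe-/- value was just below both WT values, as in 22.9% of tested genes. Psme2 has a copy gene, Psme2b, which was at 13.4 FPKM in both WT libraries and at 17.1 and 15.2 FPKM in Apoe-/- libraries, and how reads were split between them is uncertain. Relative to the alpha ring, summed Psme1 and Psme2 stood at 0.631 and 0.523 in WT and 0.650 and 0.513 in Apoe-/- libraries, with no separation of genotypes.

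Psme3, the nuclear PA28 gamma, measured 69.0 and 69.9 FPKM in WT and 65.0 and 68.9 FPKM in Apoe-/- libraries (-0.05, adjusted p = 0.795). Its groups also did not overlap, by a small margin. Thus 3 of 4 activators were lower without overlap, against 22.9% of tested genes. Psme4, the activator PA200 known for its part in chromatin and spermatogenesis, measured 14.4 and 19.0 FPKM in WT and 11.7 and 17.4 FPKM in Apoe-/- libraries (-0.20, 95% interval -0.75 to 0.36, adjusted p = 0.665). In Psme4 the gap between numbers was wider than that between genotypes. Without Apoe-/- replicate 1 its difference was 0.07.

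**Figure D3:**
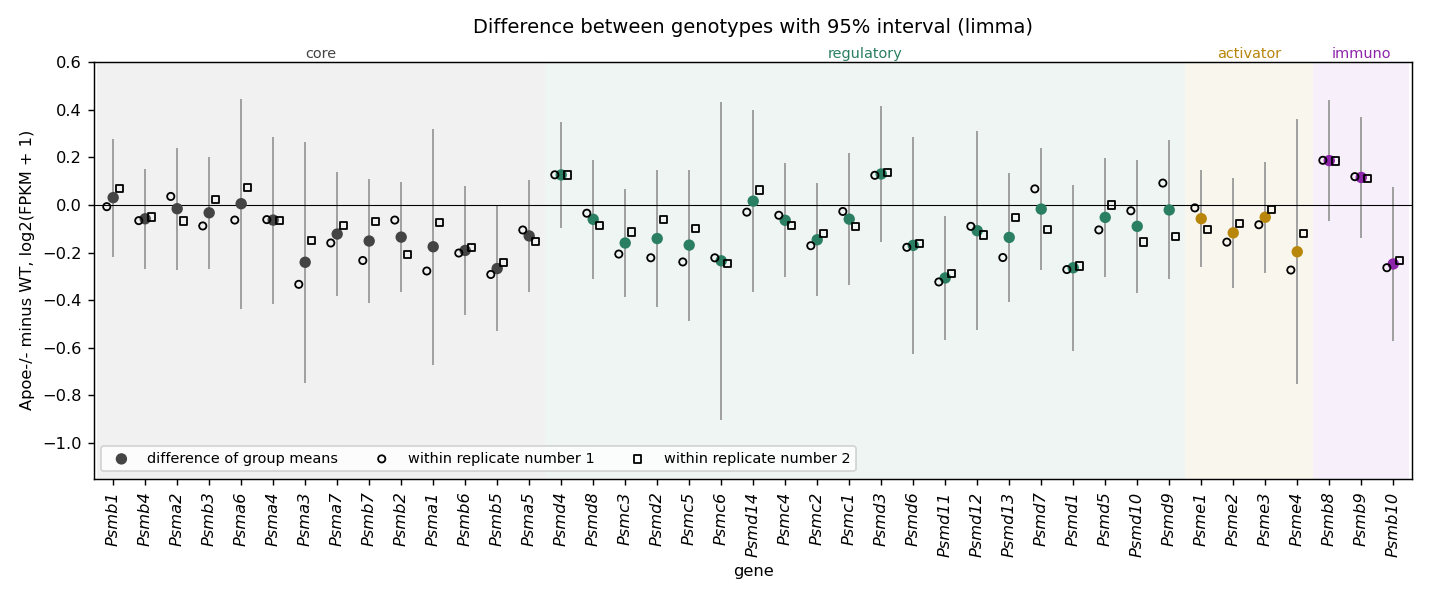
Difference of log2(FPKM + 1), Apoe-/- minus WT, for the 41 tested members by class, with limma's 95% interval as a grey line; open circles and squares are the differences within replicate numbers 1 and 2. Most points lie just below 0. Psmb8, Psmd3, Psmd4 and Psmb9 lie above it, as do Psmb1, Psmd14 and Psma6 by 0.03 or less. Only the intervals of Psmd11 and Psmb5 exclude 0 before adjustment.

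Libraries also differed by replicate number. Number 2 exceeded number 1 in both genotypes in 24 of 41 members (58.5%), against 46.5% of tested genes, and was below it in both in 11 (31.0% of tested genes). The median gap in the alpha ring was 0.26 in WT and 0.26 in Apoe-/- libraries, and in the inducible subunits it was -0.15 in each. Psmb8, Psmb9 and Psmb10 were thus all lower in number 2, whatever their genotype difference. Because the pooled test counts such a shift as error, genes such as Psmc6, Psma3 and Psme4 had standard errors of 0.20 or more, against 0.08 to 0.10 for Psme1, Psmd4, Psmb8 and Psmd11.

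**Figure D4:**
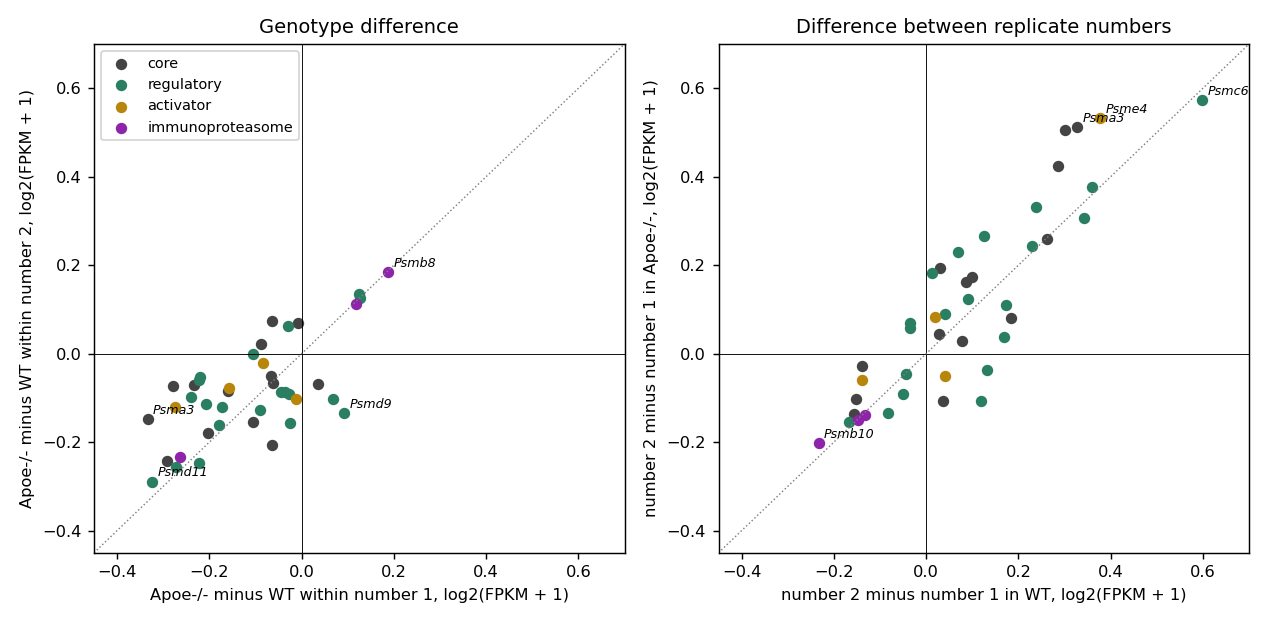
Each point is a tested member, coloured by class, in log2(FPKM + 1); the left panel sets the genotype difference within number 2 against that within number 1, and the right panel sets the difference between numbers in Apoe-/- against that in WT. On the left, 30 members are below 0 on both axes and 4 above, and on the right Psmc6 lies farthest from 0, at 0.60 and 0.57; the dotted line marks equality.

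Psmb8 and Psmb9 lie in the MHC region of chromosome 17, interleaved with Tap1 and Tap2, which encode the transporter that brings proteasome-made peptides to MHC class I. By RefSeq (GRCm38.p6) the order is Psmb9 (34182030 to 34187330), Tap1 (34187556 to 34197225), Psmb8 (34198195 to 34201454) and Tap2 (34204479 to 34216321). Psmb9 and Tap1 are transcribed in opposite directions, and their promoter windows share 275 bases. Their transcribed parts do not overlap. Tap1 measured 140 and 123 FPKM in WT and 175 and 156 FPKM in Apoe-/- libraries (0.33 ± 0.11 SE, adjusted p = 0.197). Tap2 measured 140 and 118 FPKM in WT and 175 and 151 FPKM in Apoe-/- libraries (0.33, adjusted p = 0.236). All 4 neighbours were higher in Apoe-/- cells within both numbers, as were 40.3% of tested genes, and none passed. Psmb10, the inducible subunit with a lower mean, lies on chromosome 8.

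Of 13 tested genes of MHC class I presentation, 1 fell (0.885% of all tested genes) and 0 rose (0.948%), with a median of -0.03. The gene that fell was Calr, the chaperone calreticulin of the peptide-loading complex, at 315 and 334 FPKM in WT and 210 and 209 FPKM in Apoe-/- libraries (-0.63 ± 0.08 SE, adjusted p = 0.0373). The Calr call ended when either WT library was left out, with an adjusted p of 0.111 for replicate 1 and 0.180 for replicate 2, with no FPKM filter (0.0726) and without a variance trend (0.0592). Nlrc5, the transactivator of class I genes, was at 71.5 and 69.7 FPKM in WT and 86.4 and 82.2 FPKM in Apoe-/- libraries (0.25, adjusted p = 0.220).

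Genes of the interferon-gamma axis, the route that induces Psmb8, Psmb9 and Psmb10, did not point one way. Of 16 tested genes, 0 passed, with a median of -0.05. Ifng itself was at 83.7 and 92.6 FPKM in WT and 127 and 138 FPKM in Apoe-/- libraries (0.58, adjusted p = 0.0693). Its receptor chain Ifngr2 was at 16.1 and 13.8 FPKM in WT and 9.85 and 10.1 FPKM in Apoe-/- libraries (-0.53, adjusted p = 0.102). The other chain, Ifngr1, was at 30.5 and 33.4 FPKM in WT and 38.8 and 36.9 FPKM in Apoe-/- libraries (0.24, adjusted p = 0.288). The interferon-induced factor Irf1, a direct activator of immunoproteasome promoters, was at 173 and 175 FPKM in WT and 130 and 133 FPKM in Apoe-/- libraries (-0.40, adjusted p = 0.0916). Thus the means of the cytokine and of Ifngr1 were higher while those of Ifngr2 and Irf1 were lower, with no overlap in any of them. Of the 16 genes, 5 were lower and 4 higher without overlap (31.25% and 25%), against 22.9% and 27.5% of tested genes.

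**Figure D5:**
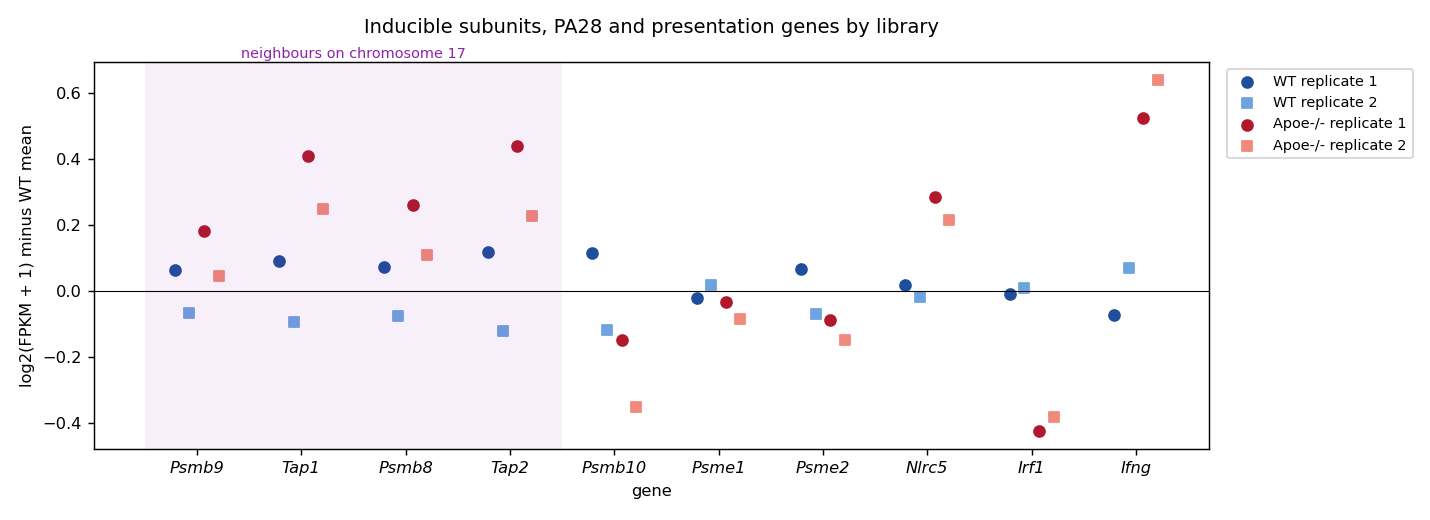
Log2(FPKM + 1) of each library minus the WT mean of that gene, for inducible subunits, PA28 and related genes, blue for WT, red for Apoe-/-, circles for replicate 1 and squares for replicate 2. The 4 neighbours on chromosome 17 are shaded, and all have Apoe-/- points above the WT point of the same number; for Psmb10 and Irf1 they lie below it.

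Outside the members, genes of proteasome assembly and supply were described from lists. The 5 assembly chaperones of the core, Psmg1 to Psmg4 and Pomp, had a median of -0.14 and 0 passing. Psmg4 was at 22.9 and 25.8 FPKM in WT and 30.0 and 30.9 FPKM in Apoe-/- libraries (0.31, adjusted p = 0.209), and Psmg3 at 12.5 and 11.4 FPKM in WT and 9.59 and 10.3 FPKM in Apoe-/- libraries (-0.24, adjusted p = 0.329). These 2 chaperones act together in the alpha ring's assembly and had opposite signs. Of 10 proteasome-associated genes, 1 fell, as did 0.885% of all tested genes. It was Zfand2a, an arsenite-inducible zinc-finger protein that binds the proteasome. Zfand2a measured 38.1 and 36.2 FPKM in WT and 16.3 and 17.8 FPKM in Apoe-/- libraries (-1.08 ± 0.11 SE, adjusted p = 0.0185). At the other end of that list was Ublcp1, a proteasome phosphatase (0.19, adjusted p = 0.497).

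Of 7 genes that control transcription of proteasome subunits, 1 fell (0.885% of all tested genes), with a list median of -0.12. Maff, a small Maf protein that pairs with Nfe2l1 and Nfe2l2 at antioxidant response elements, measured 64.0 and 57.0 FPKM in WT and 22.0 and 21.2 FPKM in Apoe-/- libraries (-1.44 ± 0.11 SE, adjusted p = 0.0109). Zfand2a and Maff kept their calls in all 13 alternative settings. Ngly1, the glycanase that processes Nfe2l1, had the most positive difference of the list (0.26, adjusted p = 0.409). Of 17 genes for ubiquitin, its activation and its delivery to the proteasome, 0 passed, with a median of -0.11. The most negative difference was -0.38, for the shuttle Ubqln1 (adjusted p = 0.131).

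Markers of other cells moved between genotypes in the same libraries. B cell markers were lower without overlap in 8 of 8 tested genes. This held for 22.9% of all tested genes. Of the 8 B cell markers 3 fell, as did 0.885% of all tested genes. Their summed FPKM was 313 to 321 in WT and 188 to 199 in Apoe-/- libraries. Of 5 tested dendritic cell markers, 1 rose (0.948% of all tested genes) and all 5 were higher without overlap (27.5% of all tested genes). The list summed to 9.28 to 10.0 FPKM in WT and 19.3 to 21.1 FPKM in Apoe-/- libraries, with Xcr1 and Clec9a under 1 FPKM throughout. Macrophage and monocyte markers summed to 183 to 207 FPKM in WT and 235 to 255 FPKM in Apoe-/- libraries. Of 9 tested, 1 rose (0.948% of all tested genes), Vsig4, which was at 0.148 and 0 FPKM in WT. Differences were above 0 in 7 and below 0 in 2. Without overlap 4 were higher (27.5% of all tested genes) and 1 was lower (22.9%), namely Emr1 (-0.15). Neutrophil markers summed to 6.18 to 7.81 FPKM and 46.8 to 63.1 FPKM. In that list 3 of 3 tested rose (0.948% of all tested genes), with Camp at 0 in every library and Mpo at 0 or 0.02 FPKM. CD8 T and NK cell markers summed to 21.7 to 21.9 FPKM and 28.6 to 33.4 FPKM (0 of 7 passed). Of these 7, 5 were higher without overlap (27.5% of all tested genes) and 0 were lower (22.9%). Plasma cell markers summed to 70.8 to 77.2 FPKM and 73.1 to 75.9 FPKM. Of 3 tested, 1 rose (0.948% of all tested genes), Igj. Xbp1 was lower without overlap (-0.48, adjusted p = 0.102), as were 22.9% of all tested genes. Erythroid markers summed to 39.1 to 44.2 FPKM and 21.6 to 29.4 FPKM (0 of 3 passed). Of these, Hbb-bs (2.23) and Hbb-b1 (-2.70) had opposite signs. They were at 20.8 and 0.0162 FPKM in Apoe-/- replicate 1, and at 0.0168 and 18.4 FPKM in Apoe-/- replicate 2. The part of these markers, and of the Tfh genes whose groups did not overlap, in the subunit differences was not tested.

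Apoe lies on chromosome 7, where 4 members also lie. The nearest were Psmc4, 8.34 Mb away, at 66.3 and 64.0 FPKM in WT and 64.3 and 60.3 FPKM in Apoe-/- libraries, and Psmd8, a lid gene 9.47 Mb away, at 94.9 and 89.6 FPKM in WT and 92.6 and 84.3 FPKM in Apoe-/- libraries. Both differences were -0.06, with adjusted p = 0.747 and 0.775, and both genes overlapped between genotypes. Psma1 and Psmd13 were 94.6 and 121 Mb away. In RefSeq 11 members overlap another gene, among them Psmb5 (Mir686), Psmb7 (Gm13586), Psme1 (Emc9), Psme4 (Erlec1 and Gm12103) and Psmd1 (Htr2b and Gm22786). Since the strand setting of the counting is not given, reads of these pairs may not be separable.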

How the data were processed

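RNA-seq libraries of Tfh cells, 2 WT and 2 Apoe-/-, were analysed from a table of FPKM per gene that the authors deposited. CASAVA 1.8.2, TopHat2 2.0.13, Cuffdiff 2.2.0 and build mm10 (GRCm38) are named in the submitters' processing notes; annotation, strand setting and library scaling are not stated there or in the labels. Depth is unknown, since FPKM keeps no counts, so no counting intervals are given. In 2 rows, split on white space, a tab was missing. The filter kept genes averaging at least 1 FPKM, which were tested as log2(FPKM + 1), a scale that understates changes of low genes. The test was limma 3.58.1 in R 4.3.3 (mean-variance trend, two-sided, Benjamini-Hochberg, threshold 0.05). A check on simulated data used independent noise and log2 changes of 1 and 2. It did not cover changes as small as those of the members. Subunit ratios were compared by exact permutation. Promoters and positions are RefSeq's, matched by symbol. The labels do not tie equal replicate numbers to a shared mouse or day, so no block was used. Members, lists, ratios and alternatives were chosen with earlier results of these data known. Named members were the catalytic and activator genes, the 5 most positive and 5 most negative, and each class's extremes in level. From each list, called genes and extremes were named. Psmc6, Psmc4, Psmd8, Psme2b, Tap1, Ifngr1, Irf1 and Nlrc5 were added after values were seen. A few genes of the lists are not reported here by name. Alternatives covered pseudocount, filter, scaling, variance trend, replicate block and each library left out.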

Additional observations from a re-analysis of the deposited data

How the results depend on the processing

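Among the 13 alternatives, 0 members passed in all but the fit with a replicate block. Under that replicate block, for which no label gives a basis, 1 member was higher (Psmb8, adjusted p = 0.0116) and 10 lower (Psma3, Psmb5, Psmb6, Psmb10, Psmc2, Psmc3, Psmc6, Psmd1, Psmd6 and Psmd11), where 32.9% of all genes passed (1908 higher, 1776 lower). Deviations of equal numbers correlated across tested genes at 0.21, which with 2 pairs does not show pairing. Over all genes the counts were 35 higher and 41 lower with no FPKM filter and 51 higher with a mean FPKM of 5 or more; leaving out single libraries gave 54 (without WT replicate 2) to 317 (without Apoe-/- replicate 2) higher and 61 to 301 lower. The activator median was -0.14 with 1 FPKM total and ran from -0.090 to -0.040 on leaving out single libraries. On leaving out single libraries, the median ran from -0.14 to -0.036 over all members, from -0.17 to -0.036 in core, from -0.17 to -0.036 in regulatory and from 0.046 to 0.18 in inducible genes, all with an unchanged sign, and the log2 ratio of summed inducible to constitutive genes ran from 0.22 to 0.38. Over all tested genes the median ran from -0.028 to 0.044 on leaving out single libraries. Signs turned for Psmb1 at -0.017 with 1 FPKM total. Leaving out single libraries turned the sign of 16 of 41 tested members, 6 of them among the 21 named: Psmb1 ran from -0.051 to 0.11 (-0.013 without WT replicate 1, -0.051 without Apoe-/- replicate 2), Psme4 from -0.46 to 0.069 and Psma3 from -0.50 to 0.015 (both positive without Apoe-/- replicate 1). Psmc6 ran from -0.53 to 0.064 (positive without WT replicate 2 or Apoe-/- replicate 1), Psmd9 from -0.081 to 0.038 (positive without WT or Apoe-/- replicate 2) and Psmd8 from -0.13 to 0.0063 (positive without Apoe-/- replicate 2). The cause was not tested. A lone library was assumed to vary like the other genotype. With 2 libraries a group, a member that did not pass may still differ.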
